A study of Mus musculus with 145 samples.

Results

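The cells described here are the germ-like cells of a chemical reprogramming of mouse spermatogonial stem cells (SSCs) that still carried high *Dazl*, the gene of an RNA-binding protein needed by germ cells, and they were compared between cultures given 5 compounds (5C) and cultures given the solvent dimethyl sulfoxide (DMSO). A cell was taken as Dazl-high when *Dazl* stood at 400 CPM or more, CPM being the count of a gene's unique molecular identifiers (UMIs) scaled to a total of 1000000 per cell or sample. Of the 1081 cells of the 5C and DMSO samples without day 0, 764 passed, 566 from 8 5C samples and 198 from 5 DMSO samples, against 5553 cells in the whole series. *Dazl* chose the cells, so its level is a description and no result. The cells closest to the threshold held 403 CPM just inside and 396 CPM just outside, 34 cells lay between 200 and 400 CPM and 56 between 400 and 800 CPM.

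All samples came from SSCs of the cross C57BL/6[female] X DBA[male], which carried an Oct4-EGFP reporter and were derived from male pups in the first postnatal week. SSCs were kept on feeders of mouse embryonic fibroblasts with EGF, bFGF, GDNF and the LIF product ESGRO. The 5C mixture holds SGC707 (an inhibitor of the arginine methyltransferase PRMT3), vitamin C, EGCG (a tea catechin), Daphnetin (a coumarin) and TUDCA (a bile acid that acts as a chemical chaperone). Single cells were picked by mouth pipette from SSC-like and PSC-like (pluripotent stem cell-like) colonies, lysed, and their polyadenylated RNA was read with UMIs in the RNA arm of scTrio-seq2, so any share of cells describes what was collected, not the culture. The 5C cells were collected on days 12, 14 and 16 and the DMSO cells on days 20 and 24, with no day in common, so treatment and day cannot be told apart in any value below. Nothing in the labels says that replicates were separate cultures, and p-values therefore measure only the spread between these samples. The cell names of DMSO replicates 1 and 2 differ only in their last number, and so do those of replicates 4 and 5. The same holds for 5C replicates 2 and 4, and what that number stands for is not given. Were such samples parts of 1 collection, the p-values would be too small.

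As background, cultured SSCs depend on GDNF, which binds the receptor pair GFRA1 and RET, and on FGF and EGF receptors. These receptors signal partly through the kinase ERK, whose output induces its own brakes, the Sprouty and Spred proteins and the phosphatases DUSP5 and DUSP6, together with transcription factors such as ETV5. Male germ cells also express the piRNA pathway, in which small RNAs guide PIWI proteins to silence transposons.

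The 5C replicates 1 to 8 were collected on days 12, 12, 14, 12, 14, 16, 12 and 16 and gave 67, 91, 82, 91, 34, 76, 51 and 74 Dazl-high cells. DMSO replicates 1 to 3 were from day 20 and gave 8, 13 and 86 such cells, and replicates 4 and 5 were from day 24 and gave 46 and 45. The share of Dazl-high cells was 78.3 ± 22.2% (SD, n = 8) in 5C and 64.3 ± 48.0% (SD, n = 5) in DMSO, a description with no test, since *Dazl* chose the cells. DMSO replicates 1 and 2 stood apart, since 80 of 88 and 77 of 90 of their cells were below the threshold. They also stood apart by expression, at 142 and 104 on the first principal component (30.5% of the variance) against 11.6 to 23.1 for DMSO replicates 3 to 5 and -39.7 to -34.4 for the 5C samples. A UMI of *Pou5f1*, *Nanog* or *Sox2*, genes of the pluripotency network, was found in 87.5% and 76.9% of the Dazl-high cells of DMSO replicates 1 and 2, in 39.5% to 51.1% of those of DMSO replicates 3 to 5, and in 81.3% to 98.5% of those of the 5C samples. Results are therefore also given without DMSO replicates 1 and 2, an alternative added after the data were seen.

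**Figure D1:**
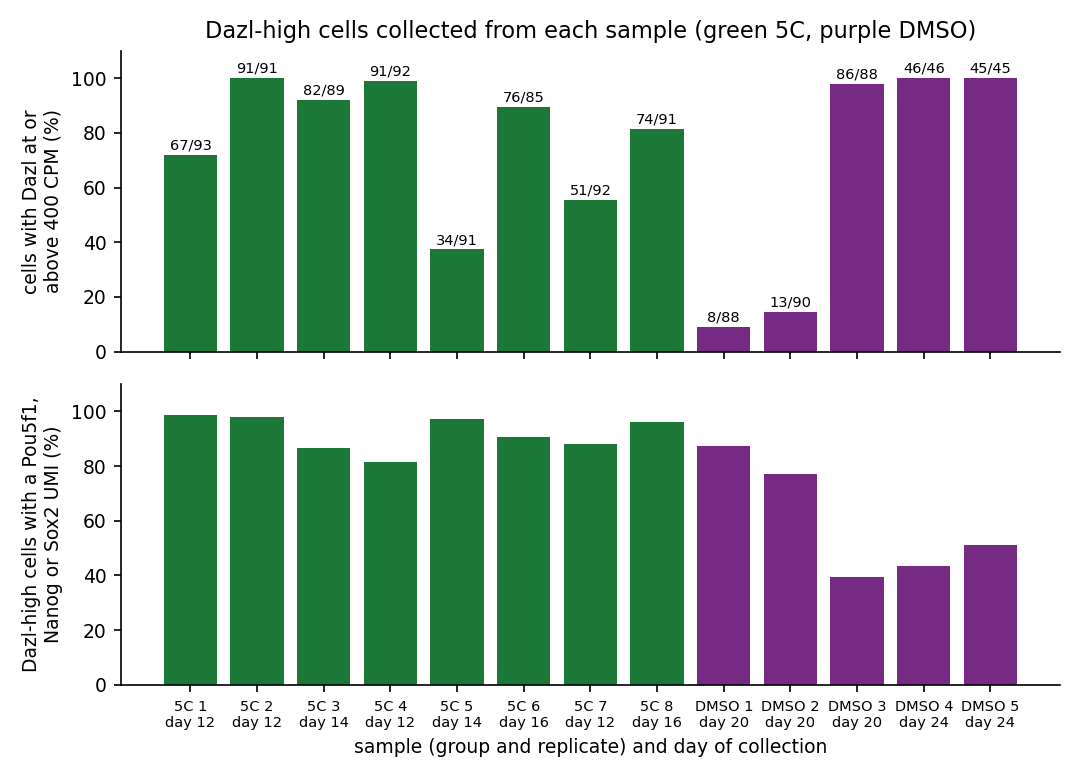
The upper bars give the percent of collected cells with *Dazl* at or above 400 CPM (numbers above the bars are Dazl-high cells of all cells), and the lower bars the percent of those cells with at least 1 UMI of *Pou5f1*, *Nanog* or *Sox2*, for each 5C (green) and DMSO (purple) sample. DMSO replicates 1 and 2 gave 8 and 13 Dazl-high cells, and in the lower panel they sit with the 5C samples rather than with DMSO replicates 3 to 5.

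Other germ cell markers were present in these cells. *Ddx4*, a germ cell RNA helicase, had a UMI in 92.3% to 100% of the Dazl-high cells of each sample, and the summed level of the 20 germ cell identity genes was 4576 to 5569 CPM in 5C and 5509 to 7459 CPM in DMSO. *Dazl* itself was at 1065 to 1562 CPM in 5C and 1331, 1429, 1225, 1085 and 1217 CPM in DMSO replicates 1 to 5. Markers of other cells were low. The 18 fibroblast or feeder genes summed to 172 to 392 CPM in 5C and 157 to 220 CPM in DMSO, none of the 6 that were tested was called, and none of the 18 was at 0 in every sample. The 6 measured Sertoli cell genes summed to 27.5 to 65.2 CPM in 5C and 13.7 to 69.6 CPM in DMSO, and 1 of 4 tested, *Clu*, was higher in 5C by edgeR (2.47 ± 0.79, SE, on the log2 scale, adjusted p = 0.0286). That call was lost without any 1 of 5C replicates 4 and 6 and DMSO replicates 4 and 5 (adjusted p = 0.0529 to 0.0709). The 7 neural genes summed to 6.73 to 22.8 CPM in 5C, 8.70 and 11.6 CPM in DMSO replicates 1 and 2, and 73.1, 121.5 and 93.6 CPM in DMSO replicates 3 to 5, most of it *Sox3*, and their part in the results was not tested. Median UMIs per cell were 58161 to 107386 in 5C and 47909.5 to 94303.5 in DMSO, and the summed counts that entered the tests held 2187261 to 10723044 and 497579 to 7985327 UMIs.

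Counts were summed per sample and tested with edgeR's quasi-likelihood test, and calls were made where p, adjusted after Benjamini and Hochberg over all 12457 genes tested, was below 0.05. In 5C, 1489 genes were higher (12%) and 1419 lower (11.4%), 2908 in all (23.3%). Without DMSO replicates 1 and 2, 2128 of 13518 genes were higher (15.7%) and 1855 lower (13.7%). The closest days, 5C day 16 against DMSO day 20, left 2 and 3 samples and called 46 of 12601 genes (0.365%), 12 higher (0.0952%) and 34 lower (0.27%). The 5 samples with at most 3 cells below the threshold were 5C replicates 2 and 4, both of day 12, the earliest, and DMSO replicates 3 to 5 of days 20 and 24. They called 931 of 13243 genes higher (7.03%) and 1100 lower (8.31%), 2031 in all (15.3%). These percentages are the background against which the counts of each gene list are set. Below, a level is the sum's CPM and a difference is the log2 fold change of 5C over DMSO with its standard error (SE). The adjusted p-values are those of the fit across all genes. *Lhx1*, *Dusp6*, *Spry4* and *Cartpt* were picked as markers of this comparison from earlier results of the same cells, and their tests are no independent evidence.

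**Figure D2:**
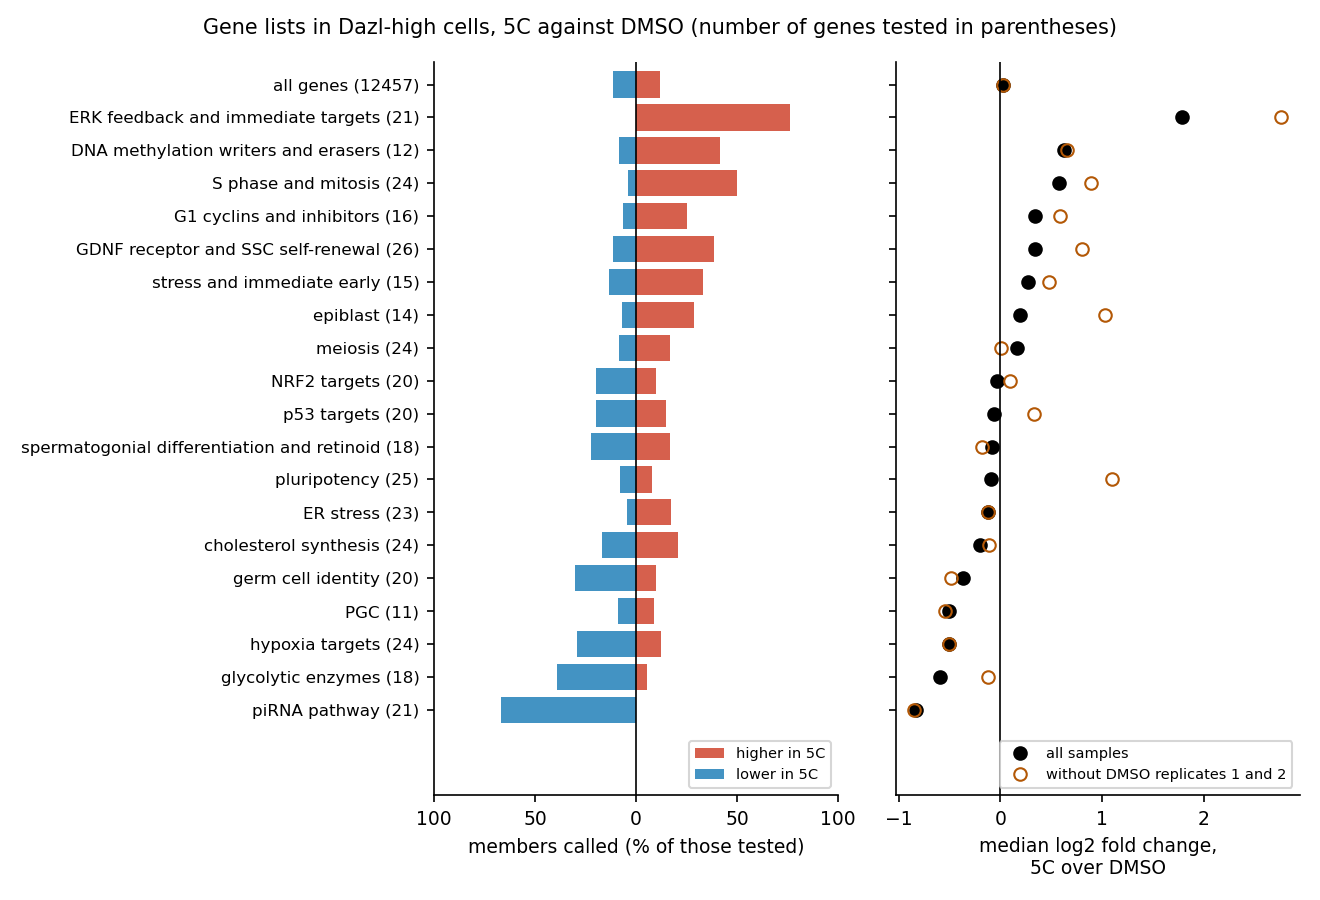
For each list of genes and for all genes tested, the left panel gives the percent of tested members called higher (red) or lower (blue) in 5C, and the right panel the median log2 fold change with all samples (filled) and without DMSO replicates 1 and 2 (open). Lists with at least 10 tested members are drawn, without the antigen presentation genes. Among them the filled points of the ERK list, at 1.78, and of the piRNA list, at -0.83, lie furthest apart, and the median of all genes is 0.03.

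The ERK feedback and immediate target genes were higher in 5C as a group. Of 21 tested members 16 were called higher and 0 lower, with a median log2 fold change of 1.78 against 0.03 over all genes, and in 6 of them the 5C and DMSO samples did not overlap (5.53% of all genes tested did so in that direction). Without DMSO replicates 1 and 2, 21 of 22 were higher and the median was 2.76. On the closest days 3 of 22 were called, all higher, with a median of 1.34.

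*Spry4*, a Sprouty protein that damps receptor tyrosine kinase signalling, gave the clearest separation among the Sprouty genes. It ranged from 37.3 to 73.3 CPM (median 49.6) in 5C and was at 0, 10.1, 1.90, 0.246 and 0 CPM in DMSO replicates 1 to 5. The groups did not overlap, and the difference was 5.14 ± 0.58, adjusted p = 7.90e-06, and 5.76 without DMSO replicates 1 and 2. *Spry2* did not overlap either, but DMSO replicate 1 came close to the lowest 5C sample. It had 19 to 50.2 CPM (median 34.5) in 5C and 17.4, 0, 5.44, 1.47 and 7.75 CPM in DMSO replicates 1 to 5, a difference of 2.59 ± 0.48, adjusted p = 6.97e-04. *Spry1* overlapped between groups at the level of DMSO replicate 1, with 21.7, 18.8, 15.2, 5.40 and 2.68 CPM in DMSO replicates 1 to 5 and 21.7 to 67.0 CPM in 5C (1.78 ± 0.42, adjusted p = 0.00434).

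*Dusp6*, the phosphatase that inactivates ERK in the cytoplasm, ranged from 116 to 266 CPM (median 179) in 5C. DMSO replicates 1 and 2 were at 93.5 and 151 CPM and replicates 3 to 5 at 20.1, 8.35 and 13.7 CPM. DMSO replicate 2 therefore fell inside the 5C range and the other 4 below it. The difference was 2.03 ± 0.51, adjusted p = 0.00646, and without DMSO replicates 1 and 2 it was 3.70, over 1.5 times larger as a log2 value. *Dusp5*, the phosphatase that acts on ERK in the nucleus, showed no such split, with 28.3, 31.9, 30.8, 22.1 and 40.2 CPM in DMSO replicates 1 to 5, all below the 55.6 to 133 CPM of 5C (1.6 ± 0.22, adjusted p = 5.28e-05). It also passed on the closest days (2.03, adjusted p = 0.0237).

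*Etv5*, a transcription factor that GDNF and FGF induce in SSCs, stood on the separation of the DMSO samples. It ranged from 157 to 259.9 CPM (median 198) in 5C. DMSO replicates 1 and 2 held 144 and 169.6 CPM, near or within the 5C range, and replicates 3 to 5 held 38.1, 3.93 and 5.66 CPM. The call (1.8 ± 0.58, adjusted p = 0.0301) was lost without DMSO replicate 3 (adjusted p = 0.0833) or replicate 5 (adjusted p = 0.0561), and the difference was 3.56 without replicates 1 and 2. *Ccnd1*, cyclin D1, a growth-factor target, was at 52.2, 17.4, 27.1, 3.68 and 2.09 CPM in DMSO replicates 1 to 5, of which only replicate 1 lay inside the 5C range of 37.3 to 109.6 (2.32 ± 0.50, adjusted p = 0.00237).

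The Spred proteins, membrane-bound brakes on RAS and RAF, were higher together. *Spred1* was at 86.0 to 149 CPM in 5C and 63.1, 55.1, 30.8, 42.2 and 24.1 CPM in DMSO replicates 1 to 5, without overlap (1.61 ± 0.22, adjusted p = 4.50e-05). *Spred2* differed less, by 1.04 ± 0.29, adjusted p = 0.0123. *Spred3* had 307 counts over the 5C samples and 0 in all 5 DMSO samples, at least 35.9-fold higher with a floor of 3 counts over the DMSO group. *Bhlhe40*, a basic helix-loop-helix repressor, likewise had 698 counts in 5C and 0 in DMSO, at least 81.5-fold higher, and *Il17rd* (Sef), which holds back FGF signalling, differed by 1.26 ± 0.33, adjusted p = 0.00833 with DMSO replicate 1 at 119.6 CPM, inside the 5C range of 56.7 to 150.3. The median of the list is the same with *Spred3* and *Bhlhe40* set to these bounds. Genes seen in fewer than 3 cells had been removed, and a gene absent from the DMSO table was counted as 0. A 0 over the whole DMSO group may thus stand for a removed gene. The bounds of *Spred3*, *Bhlhe40*, *Pax7* and *Npy* do not cover UMIs removed in that way.

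The immediate early genes *Egr1* and *Fos*, transcription factors switched on within minutes of ERK activity, were also higher. *Egr1* ranged from 76.9 to 226 CPM (median 187) in 5C against 13, 65.2, 107, 60.6 and 60.8 CPM in DMSO replicates 1 to 5 (1.43 ± 0.29, adjusted p = 0.00164), where only replicate 3 lay inside the 5C range. *Fos* was at 34.6 to 66.4 CPM in 5C and 4.35, 36.2, 34.9, 13.5 and 16.4 CPM in DMSO replicates 1 to 5 (1.22 ± 0.31, adjusted p = 0.00769), with DMSO replicates 2 and 3 just inside the 5C range. *Phlda1*, a pleckstrin homology protein induced by growth factors, differed by 2.80 ± 0.47, adjusted p = 2.85e-04.

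**Figure D3:**
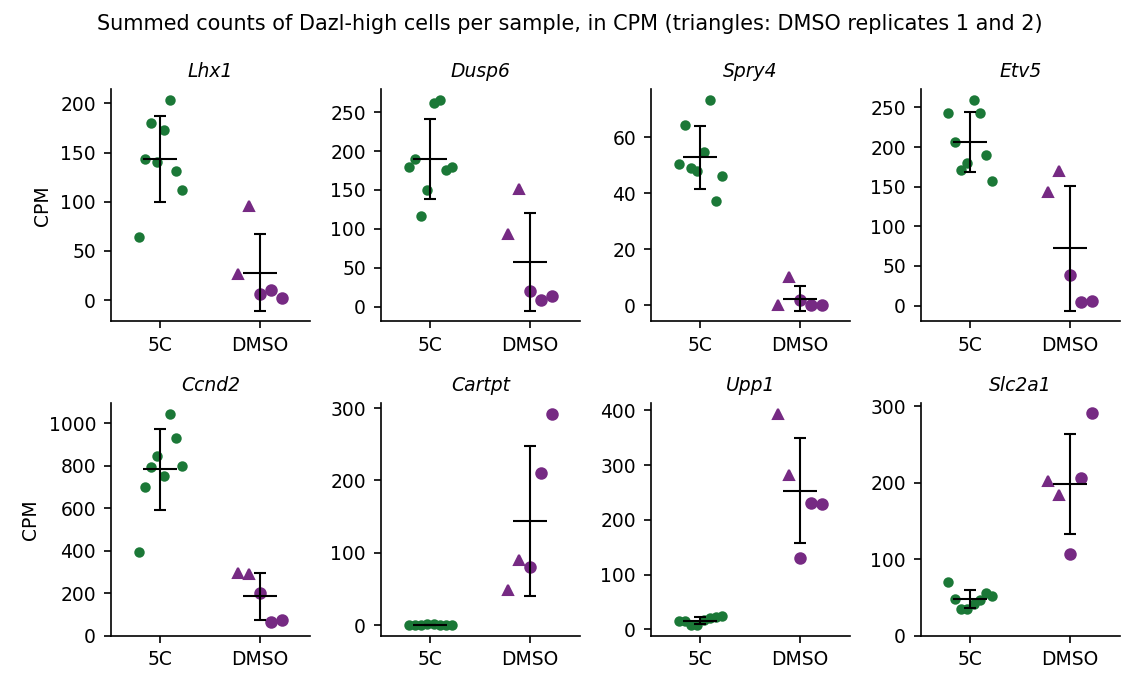
Points are the CPM of the summed Dazl-high cells of each 5C (green) and DMSO (purple) sample for 8 genes, with the mean and SD in black, and triangles mark DMSO replicates 1 and 2. For *Dusp6* and *Etv5* the triangles lie near the 5C points, while for *Spry4*, *Ccnd2*, *Cartpt*, *Upp1* and *Slc2a1* all 5 DMSO samples lie apart from all 8 5C samples.

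Among the genes of the GDNF receptor and SSC self-renewal, 10 of 26 tested were called higher and 3 lower, with a median of 0.34, or 0.80 over 28 genes without DMSO replicates 1 and 2 (10 higher, 4 lower). The receptors themselves were not called. *Ret* was at 131 to 204 CPM in 5C and 261, 335, 179.5, 156 and 168 CPM in DMSO replicates 1 to 5 (-0.34 ± 0.18, adjusted p = 0.177), and *Gfra1* at 5.79 to 32.2 and 10.9, 81.2, 12.5, 0.491 and 8.34 CPM (-0.47 ± 0.67, adjusted p = 0.661). The members that were higher were mostly transcription factors, several of which GDNF is known to induce in SSCs.

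*Lhx1*, a LIM homeobox factor of that set, ranged from 64.3 to 204 CPM (median 142) in 5C. DMSO replicate 2 reached 95.7 CPM, replicate 1 26.1 CPM and replicates 3 to 5 5.95, 10.3 and 1.79 CPM. Only DMSO replicate 2 entered the 5C range. The difference was 2.84 ± 0.60, adjusted p = 0.00205, 4.54 without DMSO replicates 1 and 2, and 2.00 on the closest days, which did not pass (adjusted p = 0.258). *Bcl6b*, a zinc finger repressor, was at 34.6 to 116 CPM in 5C and 41.3, 58.0, 17.5, 9.33 and 20.0 CPM in DMSO replicates 1 to 5, of which replicates 1 and 2 lay inside the 5C range (1.70 ± 0.37, adjusted p = 0.00247). *Id4*, an inhibitor of helix-loop-helix factors that marks SSCs, differed by 1.16 ± 0.29, adjusted p = 0.00631, and *Pou3f1*, a POU factor, by 0.93 ± 0.20, adjusted p = 0.00228.

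*Ccnd2*, cyclin D2, which SSCs use to enter the cell cycle, was among the most separate genes of this list. It ranged from 392 to 1044 CPM (median 797) in 5C and was at 296, 288, 202, 65.8 and 75.1 CPM in DMSO replicates 1 to 5. All 8 5C samples were above all DMSO samples, the difference was 2.14 ± 0.32, adjusted p = 1.04e-04, and it passed on the closest days as well (1.82, adjusted p = 0.00157). *Mycn*, a MYC family factor, differed by 1.11 ± 0.20, adjusted p = 6.45e-04 without overlap. *T*, Brachyury, was low and uneven, at 5.31 to 44.9 CPM in 5C and 15.2, 4.35, 1.52, 0 and 0 CPM in DMSO replicates 1 to 5 (3.24 ± 0.92, adjusted p = 0.014). *Pax7*, a paired box factor of a rare SSC subset, had 199 counts in 5C and 0 in DMSO, at least 23.2-fold higher with the same floor and limit.

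The members of this list that were lower do not encode GDNF-induced transcription factors. *Upp1*, uridine phosphorylase, which splits uridine into uracil and ribose phosphate, ranged from 7.66 to 23.5 CPM (median 15.6) in 5C and was at 394, 283, 131, 231 and 229 CPM in DMSO replicates 1 to 5. The difference was -3.97 ± 0.27, adjusted p = 9.11e-09, and it passed on the closest days (-3.56, adjusted p = 0.00119) and without DMSO replicates 1 and 2 (-3.63). *Sdc4*, a heparan sulfate proteoglycan of the cell surface, was at 459 to 871 CPM in 5C and 1046, 1175, 1165, 1276 and 1269 CPM in DMSO replicates 1 to 5, without overlap (-0.99 ± 0.13, adjusted p = 3.23e-05). *Lin28a*, an RNA-binding protein that blocks let-7, differed by -0.59 ± 0.19, adjusted p = 0.0293, a call lost without any 1 of 5C replicates 4, 7 and 8 and DMSO replicates 3 and 4 (adjusted p = 0.0512 to 0.109).

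*Cartpt*, which encodes the precursor of the neuropeptide CART, had the largest difference among the genes named here. It lies on the minus strand of chromosome 13 in mm10 at chr13:99898489-99901091. In 5C it ranged from 0 to 0.925 CPM (median 0.0856), 10 counts over 8 samples, and in DMSO replicates 1 to 5 it was at 47.8, 89.9, 79.6, 210.4 and 292 CPM, 2550 counts. No 5C sample reached 1 CPM and no DMSO sample was below 47.8 CPM. The difference was -9.26 ± 0.55, adjusted p = 7.00e-10, -9.67 without DMSO replicates 1 and 2, and -11.24 on the closest days (adjusted p = 8.73e-05). By cell, a *Cartpt* UMI was found in 0 to 5.88% of the Dazl-high cells of the 5C samples and in 25%, 53.8%, 73.3%, 80.4% and 77.8% of those of DMSO replicates 1 to 5, with exact (Clopper-Pearson) 95% intervals of 3.19% to 65.1%, 25.1% to 80.8%, 62.6% to 82.2%, 66.1% to 90.6% and 62.9% to 88.8%, which cover counting error only. With every cell thinned to 30000 UMIs, leaving out 59 shallower cells of 5C and 14 of DMSO, the shares were 0 to 3.76% and 28.5%, 47.2%, 53.9%, 66.6% and 64.7%. In the cells below the *Dazl* threshold a UMI was found in 1 of 80 and 2 of 77 cells of DMSO replicates 1 and 2. The exact intervals of these shares, 0.0316% to 6.77% and 0.316% to 9.07%, overlapped that of the Dazl-high cells in replicate 1 and not in replicate 2, and replicates 3 to 5 held too few such cells to compare.

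The promoter of *Cartpt* is shown because its difference was the largest among the genes named here. It is from RefSeq (GRCm38.p6, the assembly that mm10 names), 250 bases before to 50 after the start site at chr13:99900634-99900933, minus strand. The 1 match to TGACGTCA, the consensus of the cAMP response element, is in capitals at 112 bases before the start site.
Cartpt: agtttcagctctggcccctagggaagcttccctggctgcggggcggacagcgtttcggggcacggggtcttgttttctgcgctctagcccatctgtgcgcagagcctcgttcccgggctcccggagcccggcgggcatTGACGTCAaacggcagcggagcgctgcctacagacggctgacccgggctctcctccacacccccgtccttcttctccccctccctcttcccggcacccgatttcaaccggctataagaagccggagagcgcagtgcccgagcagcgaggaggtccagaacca
That sequence of 8 letters, searched on both strands, which read the same, was present in 588 of 32851 RefSeq promoters of this length (1.79%) and in 372 of the 11847 promoters of genes tested here (3.14%). The match is a description of the sequence and says nothing of binding in these cells.

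The other peptide hormone genes were few. Of 20 in the list 14 were measured and 6 tested, and 2 were called higher and 2 lower. *Gal*, galanin, was at 1.85 to 77.6 CPM (median 19.2) in 5C and 0, 0, 4.94, 0 and 2.38 CPM in DMSO replicates 1 to 5 (3.51 ± 0.84, adjusted p = 0.00483). *Npy*, neuropeptide Y, had 120 counts in 5C and 0 in DMSO, at least 14-fold higher with the floor and limit given for *Spred3*. *Pomc*, the precursor of ACTH and endorphin, differed by -1.18 ± 0.39, adjusted p = 0.0329, a call lost without any 1 of DMSO replicates 1, 4 and 5 (adjusted p = 0.0514 to 0.0884).

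The piRNA pathway genes were lower in 5C as a group. Of 21 tested, 14 were called lower and 0 higher, with a median of -0.83, and 6 did not overlap between groups (3.8% of all genes tested did so in that direction). Without DMSO replicates 1 and 2, 16 of 21 were lower and the median was -0.85. On the closest days 0 of 21 were called by edgeR, with a median of -0.32. In cells with 0 UMIs of *Pou5f1*, *Nanog* and *Sox2*, 4 of 20 were lower and 0 higher, with a median of -1.02. That filter left only 5C replicates 3, 4, 6 and 7 and DMSO replicates 3 to 5 with at least 5 cells.

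*Mov10l1*, the helicase that feeds precursors into piRNA production, ranged from 204 to 269 CPM (median 245) in 5C and was at 339, 362, 443, 498 and 528 CPM in DMSO replicates 1 to 5. The groups did not overlap (-0.86 ± 0.12, adjusted p = 5.98e-05). *Mael*, a germ granule protein that acts in transposon silencing, was at 240.3 to 425 CPM in 5C and 546, 461, 730.4, 768 and 710.5 CPM in DMSO replicates 1 to 5 (-0.87 ± 0.14, adjusted p = 2.19e-04). *Ddx4* (Vasa), the helicase of the germ granule, was at 231 to 302 CPM in 5C and 344, 341, 365, 482 and 481 CPM in DMSO replicates 1 to 5, also without overlap but with a smaller difference (-0.65 ± 0.12, adjusted p = 5.62e-04).

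*Tdrd5* and *Tdrd1*, Tudor proteins that scaffold the granule, differed by -1.24 ± 0.16, adjusted p = 2.73e-05, and by -1.07 ± 0.22, adjusted p = 0.00153. *Gtsf1*, a zinc finger partner of PIWI proteins, ranged from 82.3 to 242 CPM (median 194) in 5C and was at 324, 451, 388, 413 and 413 CPM in DMSO replicates 1 to 5 (-1.23 ± 0.21, adjusted p = 3.58e-04). *Fkbp6*, a co-chaperone of PIWI loading, was at 400.4 to 586 CPM in 5C and 581, 649, 948, 1086 and 1162 CPM in DMSO replicates 1 to 5, with DMSO replicate 1 inside the 5C range (-0.83 ± 0.15, adjusted p = 4.61e-04). *Henmt1*, which methylates the ends of piRNAs, differed by -1.17 ± 0.30, adjusted p = 0.00705.

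The PIWI genes themselves were less firm. *Piwil2*, the PIWI protein of spermatogonia, was at 147 to 195 CPM in 5C and 169.6, 142, 256, 316 and 324 CPM in DMSO replicates 1 to 5, where replicate 2 was below every 5C sample. Its call (-0.53 ± 0.16, adjusted p = 0.0225) was lost without DMSO replicate 4 (adjusted p = 0.0947) or 5 (adjusted p = 0.1), and without replicates 1 and 2 the difference was -0.81. *Piwil4*, the nuclear PIWI protein, differed by -1.18 ± 0.40, adjusted p = 0.0359 and lost its call without any 1 of 5C replicates 1, 2, 5 and 8 and DMSO replicates 3 to 5 (adjusted p = 0.0511 to 0.211). *Tdrd9*, a helicase with a Tudor domain, was at the edge of the threshold (-1.55 ± 0.56, adjusted p = 0.0499) and lost its call without any 1 of 5C replicates 1, 3, 4, 5, 7 and 8 and DMSO replicates 2, 4 and 5 (adjusted p = 0.0557 to 0.147).

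**Figure D4:**
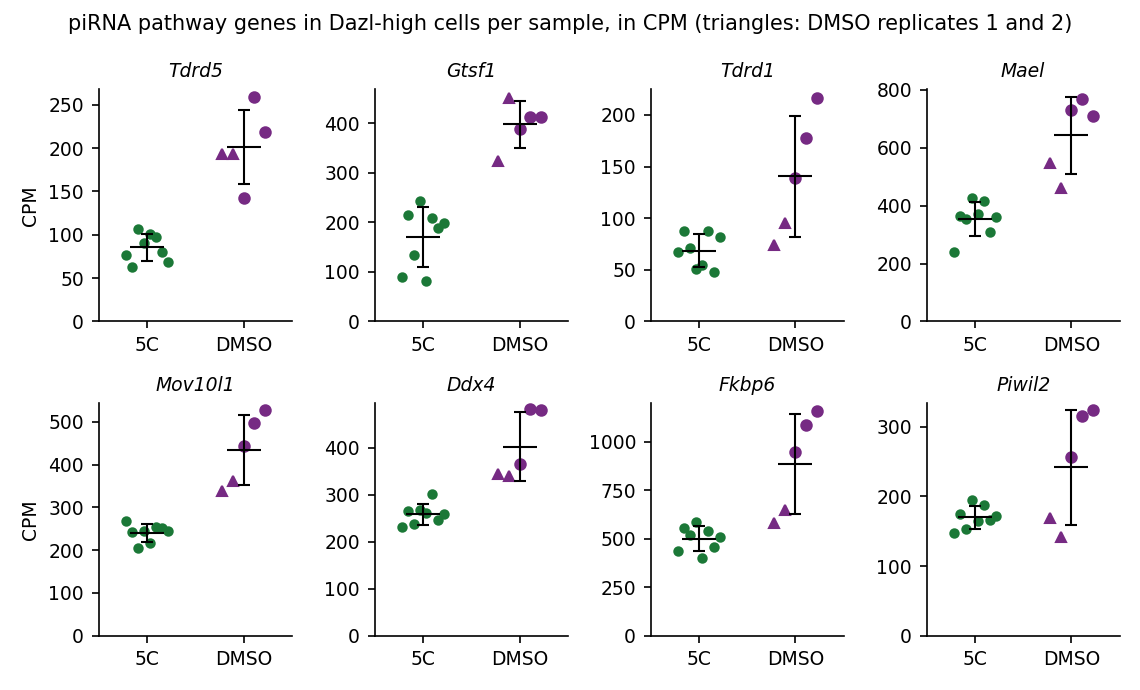
Points are the CPM of the summed Dazl-high cells of each 5C (green) and DMSO (purple) sample for 8 piRNA pathway genes, with the mean and SD in black, and triangles mark DMSO replicates 1 and 2. The 5C points lie below all DMSO points for *Tdrd5*, *Gtsf1*, *Mael*, *Mov10l1* and *Ddx4*, while DMSO replicates 1 and 2 lie close to or within the 5C points for *Tdrd1*, *Fkbp6* and *Piwil2*.

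The promoters of the piRNA genes are shown because most tested members were called in 1 direction and several hold 1 sequence. CACGTG, the palindromic core of an E-box, was present in the promoters of 7 of the 12 called members that had one in RefSeq (58.3%) and of 8 of 19 members of the whole list (42.1%), against 12.3% of the 9263 tested genes and 8.09% of all 27025 genes with a promoter (7.15% of all 32851 promoters of this length). The germ cell identity list, which shares *Mael* and *Ddx4*, had it in 5 of 13 genes (38.5%). The members were picked with results known, so these shares are a description. The 3 members without overlap between groups that hold a single match are printed with it in capitals, at chr1:166238695-166238994 (minus strand), chr13:112652261-112652560 (minus strand) and chr15:88982744-88983043 (plus strand) of GRCm38.p6. The match begins 223 bases before the start site in *Mael*, 29 in *Ddx4* and 246 in *Mov10l1*.
Mael: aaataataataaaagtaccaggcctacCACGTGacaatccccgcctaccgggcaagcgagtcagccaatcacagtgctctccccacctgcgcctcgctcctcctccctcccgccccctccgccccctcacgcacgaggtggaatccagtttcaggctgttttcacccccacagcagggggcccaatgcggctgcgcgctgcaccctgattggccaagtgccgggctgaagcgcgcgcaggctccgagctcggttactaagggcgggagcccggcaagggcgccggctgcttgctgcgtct
Ddx4: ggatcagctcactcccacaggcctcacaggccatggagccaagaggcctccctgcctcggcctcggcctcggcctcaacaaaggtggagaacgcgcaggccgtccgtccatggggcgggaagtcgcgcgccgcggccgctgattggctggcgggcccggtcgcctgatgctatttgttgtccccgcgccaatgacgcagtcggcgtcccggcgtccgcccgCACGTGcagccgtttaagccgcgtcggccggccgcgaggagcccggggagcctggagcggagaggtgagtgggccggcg
Mov10l1: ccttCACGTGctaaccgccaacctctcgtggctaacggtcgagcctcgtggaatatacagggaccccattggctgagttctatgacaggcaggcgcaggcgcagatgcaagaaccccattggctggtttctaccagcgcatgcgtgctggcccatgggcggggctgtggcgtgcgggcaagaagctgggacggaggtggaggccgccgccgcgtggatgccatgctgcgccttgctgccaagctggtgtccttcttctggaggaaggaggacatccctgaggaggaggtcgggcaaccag

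Of the 20 germ cell identity genes, which share *Mael* and *Ddx4* with the piRNA list, 6 were called lower and 2 higher, with a median of -0.37. Without DMSO replicates 1 and 2, 12 were lower and 2 higher. *Uchl1*, a deubiquitinase abundant in spermatogonia, was at 393 to 618 CPM in 5C and 718, 793, 1273, 1302 and 1443 CPM in DMSO replicates 1 to 5 (-1.13 ± 0.16, adjusted p = 5.29e-05). *Sohlh1* and *Sohlh2*, a pair of helix-loop-helix factors of spermatogonial differentiation, went in opposite directions. *Sohlh1* differed by -1.39 ± 0.33, adjusted p = 0.00413, with 87.0, 92.8, 338, 280.4 and 275 CPM in DMSO replicates 1 to 5 against 24.0 to 124 in 5C, and *Sohlh2* by 0.75 ± 0.14, adjusted p = 5.13e-04, with 82.6, 126, 114, 129 and 126 against 169 to 241. *Zbtb16* (PLZF), *Sall4* and *Dmrt1*, factors of undifferentiated spermatogonia, were not called, at -0.10 ± 0.22, 0.09 ± 0.16 and -0.39 ± 0.15 (SE, adjusted p = 0.786, 0.744 and 0.0727).

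Of the differentiation and retinoid genes, 3 of 18 tested were higher and 4 lower, with a median of -0.08, near that of all genes. *Crabp1*, which binds retinoic acid in the cytoplasm, ranged from 12.3 to 61.0 CPM (median 28.7) in 5C and was at 161, 49.3, 401, 323 and 315 CPM in DMSO replicates 1 to 5. DMSO replicate 2 was inside the 5C range and the other 4 above it (-2.93 ± 0.35, adjusted p = 1.24e-05). *Dmrtb1*, which governs the switch from mitosis to meiosis, was higher without overlap, at 13.8 to 61.6 CPM in 5C against 0, 0, 4.81, 3.19 and 6.85 CPM in DMSO replicates 1 to 5 (2.93 ± 0.48, adjusted p = 2.43e-04). Of the meiosis genes 4 of 24 were higher and 2 lower. *Meioc* and *Ythdc2*, partners that stabilise entry into meiosis, were both higher without overlap, by 2.15 ± 0.43, adjusted p = 0.00124, and by 1.5 ± 0.35, adjusted p = 0.00432. *Tex12*, of the synaptonemal complex, was lower (-1.07 ± 0.21, adjusted p = 0.00101).

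Of 24 S phase and mitosis genes 12 were called higher and 1 lower, with a median of 0.57, and without DMSO replicates 1 and 2 the counts were 18 and 0 with a median of 0.89. *Mki67*, the proliferation antigen Ki-67, ranged from 117 to 264 CPM (median 211) in 5C and was at 82.6, 94.2, 59.6, 16.7 and 21.8 CPM in DMSO replicates 1 to 5, without overlap (1.97 ± 0.36, adjusted p = 6.00e-04). *Tpx2*, a spindle assembly factor, was at 97.0 to 203 CPM in 5C and 82.6, 46.4, 84.6, 63.1 and 49.5 CPM in DMSO replicates 1 to 5 (1.08 ± 0.20, adjusted p = 6.53e-04). *Top2a*, the topoisomerase of dividing cells, differed by 0.87 ± 0.24, adjusted p = 0.0127. On the closest days 0 of 24 were called by edgeR and the median was 0.18. Of the G1 cyclins and inhibitors 4 of 16 were higher and 1, *Ccnd3*, was lower (-1.04 ± 0.23, adjusted p = 0.00331), opposite to *Ccnd1* and *Ccnd2*.

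Among the DNA methylation writers and erasers, 5 of 12 were higher and 1 lower, with a median of 0.62. *Dnmt1*, the maintenance methyltransferase, was at 300.4 to 358 CPM in 5C and 178, 284, 174, 172 and 129 CPM in DMSO replicates 1 to 5, without overlap (0.82 ± 0.15, adjusted p = 4.85e-04). *Uhrf1*, which brings DNMT1 to replicating DNA, differed by 0.90 ± 0.24, adjusted p = 0.00931, with DMSO replicate 2 (265 CPM) inside the 5C range, and *Trim28*, a corepressor that guards imprints, by 0.85 ± 0.13, adjusted p = 1.56e-04 without overlap. *Dnmt3l*, the cofactor of de novo methylation, was called lower (-1.74 ± 0.55, adjusted p = 0.0251), with 250.1 and 177 CPM in DMSO replicates 1 and 2. The other 3 DMSO samples, at 11.6, 23.6 and 36.7 CPM, lay just below or within the 12.4 to 61.0 CPM of 5C. Without both replicates the difference was 0.20 (adjusted p = 0.757), and without replicate 1 or 2 alone the adjusted p was 0.151 and 0.0970.

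Glycolytic enzymes were lower in 5C by 7 of 18, with 1 higher and a median of -0.60. *Eno1*, enolase, was at 175 to 387 CPM in 5C and 933, 841, 590.2, 641 and 655 CPM in DMSO replicates 1 to 5 (-1.45 ± 0.16, adjusted p = 7.90e-06), and *Pfkl*, the liver form of phosphofructokinase, at 2.23 to 11.6 and 60.9, 62.3, 22.3, 21.8 and 17 CPM (-2.35 ± 0.40, adjusted p = 3.68e-04). Neither overlapped. *Ldha*, lactate dehydrogenase A, was called lower (-1.08 ± 0.27, adjusted p = 0.00664) with 894 and 801 CPM in DMSO replicates 1 and 2, but without them the difference was -0.18 (adjusted p = 0.424). Without those replicates the counts were 5 lower and 4 higher and the median -0.12, and in the 5 samples with at most 3 cells below the threshold they were 6 lower and 1 higher with a median of -0.25.

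The hypoxia targets held 7 lower and 3 higher members of 24 tested, with a median of -0.50, or -0.51 without DMSO replicates 1 and 2. *Slc2a1*, the glucose transporter GLUT1, ranged from 35.1 to 70.0 CPM (median 47.1) in 5C and was at 202, 184, 107, 206 and 291 CPM in DMSO replicates 1 to 5. The groups did not overlap (-2.04 ± 0.20, adjusted p = 2.41e-06) and the gene passed on the closest days (-1.72, adjusted p = 0.0407). *Bnip3*, a mitophagy receptor, split the DMSO samples the other way, with 23.9 and 5.8 CPM in replicates 1 and 2 and 108, 132 and 155 CPM in replicates 3 to 5, against 10.6 to 47.1 CPM in 5C. Its call (-1.51 ± 0.44, adjusted p = 0.0174) was lost without DMSO replicate 4 (adjusted p = 0.0570) or 5 (adjusted p = 0.0769).

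The pluripotency list depended on the DMSO replicates. With all samples 2 of 25 were higher and 2 lower (median -0.09), and without DMSO replicates 1 and 2, 11 were higher and 1 lower (median 1.09). In the 5 samples with at most 3 cells below the threshold, 5 of 23 were higher and 3 lower (median 0.20). *L1td1*, an RNA-binding protein of pluripotent cells, was at 157 and 68.1 CPM in DMSO replicates 1 and 2, at 0 in replicates 3 to 5 and at 4.26 to 115 CPM in 5C. *Nanog* was at 45.7 and 50.7 CPM in DMSO replicates 1 and 2, at 0.760, 0 and 0.298 CPM in replicates 3 to 5 and at 1.04 to 77.2 CPM in 5C. In both genes DMSO replicates 1 and 2 were high and replicates 3 to 5 below every 5C sample, with no difference called over all samples (adjusted p = 0.887 and 0.815). *Sox2* was called higher (1.65 ± 0.51, adjusted p = 0.0236), with 70.6 to 339.7 CPM in 5C and 119.6, 109, 7.34, 24.8 and 40.2 CPM in DMSO replicates 1 to 5, and lost the call without any 1 of 5C replicate 1 and DMSO replicates 4 and 5 (adjusted p = 0.0503 to 0.0685). The summed pluripotency genes were 4012 and 2875 CPM in DMSO replicates 1 and 2, 615 to 779 CPM in replicates 3 to 5 and 581 to 2778 CPM in 5C. In the cells with 0 UMIs of *Pou5f1*, *Nanog* and *Sox2* 258 of 8642 genes were called (2.99%), 95 higher (1.1%) and 163 lower (1.89%), and 6 of 16 ERK genes were higher there and 0 lower, with a median of 1.85. Only 5C replicates 3, 4, 6 and 7 and DMSO replicates 3 to 5 held enough such cells, so the samples changed along with the cells.

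The epiblast list held 4 higher and 1 lower of 14 (median 0.19), and 9 higher and 1 lower of 15 without DMSO replicates 1 and 2 (median 1.03). The primordial germ cell list held 1 higher and 1 lower of 11, and 1 higher and 4 lower of 14 without them. *Sox3*, an epiblast and neural SOX factor also found in spermatogonia, was the 1 epiblast member called lower (-2.53 ± 0.48, adjusted p = 8.92e-04). DMSO replicates 1 and 2, at 4.35 and 5.8 CPM, were inside the 5C range of 2.77 to 16.2, and replicates 3 to 5 were at 60.0, 93.5 and 68.8 CPM. The neural list shares *Sox3* and had 1 other tested member, which was not called.

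Stress and metabolic lists were mixed. Of the p53 targets 3 of 20 were higher and 4 lower (median -0.06), which turned to 8 higher and 3 lower of 21 (median 0.33) without DMSO replicates 1 and 2. In the 5 samples with at most 3 cells below the threshold they were 1 higher and 3 lower of 20 (median 0.36). *Btg2*, an antiproliferative p53 target, ranged from 51.5 to 111 CPM (median 77.1) in 5C and was at 109, 114, 196, 289.7 and 375 CPM in DMSO replicates 1 to 5 (-1.56 ± 0.24, adjusted p = 1.43e-04), and *Pmaip1* (Noxa), which promotes apoptosis, was higher without overlap (1.55 ± 0.28, adjusted p = 5.00e-04). Of the ER stress genes 4 of 23 were higher and 1 lower (median -0.13). The chaperones *Canx* and *Calr*, calnexin and calreticulin, were higher by 0.73 ± 0.13, adjusted p = 4.43e-04, and by 0.63 ± 0.12, adjusted p = 0.00107, both without overlap, while *Creld2* was lower (-0.49 ± 0.13, adjusted p = 0.00783). Without DMSO replicates 1 and 2 the ER stress counts turned to 4 higher and 7 lower. Of the NRF2 targets 2 of 20 were higher and 4 lower, which turned to 6 higher and 2 lower of 21 without those replicates. Of the stress and immediate early genes 5 of 15 were higher and 2 lower, or 7 and 1 without them.

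Cholesterol synthesis was split within the pathway, with 5 of 24 higher, 4 lower and a median of -0.20. *Dhcr7*, the last enzyme of the pathway, was at 33.3 to 72.2 CPM in 5C and 126, 109, 171, 205 and 183 CPM in DMSO replicates 1 to 5 (-1.61 ± 0.19, adjusted p = 8.97e-06). *Fdft1*, squalene synthase, differed by -0.94 ± 0.12, adjusted p = 3.48e-05, and *Mvd*, of the mevalonate pathway, by -1.12 ± 0.16, adjusted p = 6.29e-05, both lower without overlap. *Mt1* and *Mt2*, metallothioneins that bind zinc and copper, were lower (-0.70 ± 0.18, adjusted p = 0.00892, and -0.81 ± 0.18, adjusted p = 0.00241). Of 3 metallothioneins tested, 1 was lower without DMSO replicates 1 and 2, and 0 in the samples with at most 3 cells below the threshold. *Hspb1*, a small heat shock protein, was at 589 and 519 CPM in DMSO replicates 1 and 2 and at 29.4, 21.1 and 13.7 CPM in replicates 3 to 5. Its call as lower (-2.21 ± 0.66, adjusted p = 0.0183) was lost without either of the first pair (adjusted p = 0.104 and 0.101) and turned to higher without both (1.12, adjusted p = 0.0206).

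The genes with the largest differences without overlap, and a mean of at least 20 CPM in the higher group, included 3 transcription regulators among the 10 that were higher in 5C. *En1*, a homeobox factor, was at 8.0 to 73.4 CPM in 5C and 0, 0, 0.506, 0.737 and 0 CPM in DMSO replicates 1 to 5 (6.11 ± 0.81, adjusted p = 3.63e-05). *Skor1*, a corepressor of the SKI family, was at 9.34 to 31.6 and 0, 0, 0.506, 1.47 and 0.596 CPM (4.98 ± 0.52, adjusted p = 3.59e-06), and *Sall2*, a zinc finger factor, at 15.8 to 25.8 and 2.17, 0, 0.633, 1.47 and 0 CPM (4.74 ± 0.56, adjusted p = 1.19e-05). *En1* and *Skor1* passed on the closest days too (6.54 and 5.99, adjusted p = 0.0126 and 0.0354). The others were *Spry4*, *Hs3st3b1* (a heparan sulfate sulfotransferase), *Crmp1* (a regulator of axon growth), *Nrros*, *Mest* (an imprinted gene expressed from the paternal allele), *Sez6* and *Top2b*, with differences of 3.21 to 5.14.

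The largest losses after *Cartpt* were in *Ly6g6c*, of the Ly6 family, *Nme8*, a thioredoxin-domain protein of sperm and cilia, and *Clec10a*, a lectin. *Nme8* ranged from 0 to 1.34 CPM (median 0) in 5C and was at 15.2, 13, 18.4, 28.7 and 35.8 CPM in DMSO replicates 1 to 5 (-5.58 ± 0.73, adjusted p = 3.19e-05). *Ly6g6c* sits beside near relatives of its family and reads could be shared with them, so its value (-6.18 ± 0.73, SE) is uncertain. *Rsph1*, of the radial spoke of motile cilia, was at 1.04 to 6.85 CPM in 5C and 45.7, 39.1, 44.9, 85.2 and 131 CPM in DMSO replicates 1 to 5 (-4.12 ± 0.41, adjusted p = 2.25e-06). *Pla2g16*, a phospholipase, was at 0.594 to 4.94 and 34.8, 14.5, 40.1, 47.1 and 59.9 CPM (-3.82 ± 0.41, adjusted p = 3.86e-06). *Nupr1*, *Cd74* (the invariant chain of class II antigen presentation) and *Zbp1* (a sensor of Z-form nucleic acid), with *Upp1* already described, complete the 10, with differences of -3.85, -3.66 and -3.50.

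The original condition, reprogramming without the compounds, gives the difference between days without that of treatment, although its libraries were made by another protocol (modified STRT-seq) and its late days were all of 1 batch. Its 15 libraries of days 12, 14 and 16 held 1353 Dazl-high cells and its 21 libraries of days 20, 23 and 27 held 1750. Of 15746 genes tested, 1509 were higher on the early days (9.58%) and 1248 lower (7.93%). Of the 2905 genes called between 5C and DMSO and tested here, 634 were called by day too (21.8%, against 21% of the 12446 genes tested in both). In 82 and 153 of them early libraries were higher and lower as 5C was, and in 399 the sign was opposite.

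*Lhx1* and *Etv5* went the other way by day. *Lhx1* was lower on the early days (-0.92, adjusted p = 0.0361), with a median of 35.2 CPM against 69.1 CPM on the late days. *Etv5* was also lower early (-0.73, adjusted p = 0.0296), *Dusp6* and *Spry4* were not called (-0.52 and -0.27, adjusted p = 0.14 and 0.624), and neither was *Cartpt* (1.07, adjusted p = 0.124). *Cartpt* had a median of 79.4 CPM early, with 12.9 to 193 CPM over the 15 libraries, so its level in every early library without the compounds was above the 0 to 0.925 CPM of the 5C samples of the same days, a comparison across protocols with no test. Of the ERK list 1 of 21 tested was higher early and 6 lower, of the piRNA list 4 of 21 higher and 1 lower, and of the S phase and mitosis list 1 of 24 higher and 3 lower.

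Several metabolic genes went the same way by day and treatment. *Slc2a1* was lower early (-1.39, adjusted p = 1.44e-05), as was *Pfkl* (-1.51, adjusted p = 3.50e-04), and *Eno1* was not called (-0.10, adjusted p = 0.503). Of the glycolytic enzymes 11 of 18 were lower early and 0 higher, and of the hypoxia targets 12 of 25 lower and 0 higher.

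**Figure D5:**
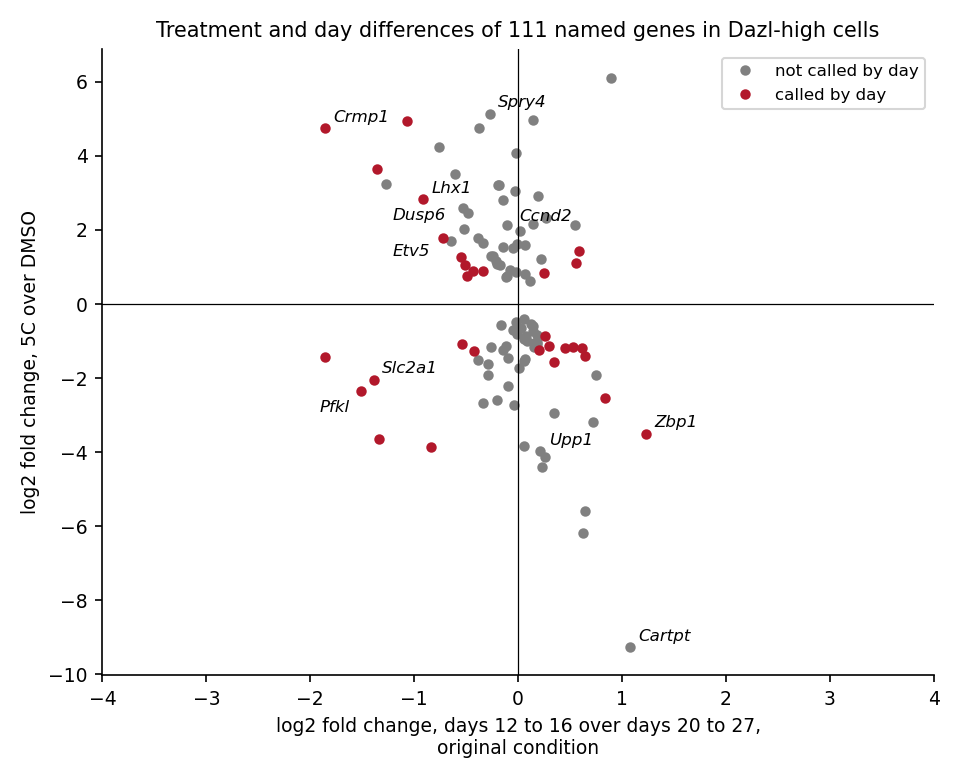
Each point is 1 of 111 named genes, with the log2 fold change of days 12 to 16 over days 20 to 27 in the original condition on the horizontal axis and of 5C over DMSO on the vertical axis, and the 30 genes called by day in red. *Pax7*, *Spred3* and *Bhlhe40*, at 0 in all DMSO samples, are left out. *Lhx1* and *Etv5* lie in the upper left part of the plot and *Slc2a1* and *Pfkl* in the lower left.

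The same samples held cells below the *Dazl* threshold, 158 in 5C and 159 in DMSO, and there the treatment contrast rested on DMSO replicates 1 and 2 alone. The Dazl-high contrast used all DMSO replicates, so a gap between the 2 contrasts also holds differences between DMSO samples. The difference of the 2 treatment effects was tested in limma with the sample as a block. It passed for 1243 of 14482 genes toward higher in Dazl-high cells (8.58%) and for 677 toward lower (4.67%). The calls, 1920 in all, fell without DMSO replicate 1 or 2. Each of those fits left 1 DMSO sample of the other cells, so their counts are not given. With edgeR without the block 433 genes passed toward higher and 467 toward lower, so the balance of directions depended on the fit. Of the ERK list 9 of 23 members passed toward higher and 0 toward lower, of the piRNA list 0 and 9 of 22, and of the S phase and mitosis list 12 and 0 of 24. In this fit, which averages logarithms, *Etv5* differed by 3.58 in Dazl-high cells and by -0.08 in the others, a gap of 3.66 ± 0.49 (SE, adjusted p = 1.86e-05). In the Dazl-high cells of DMSO replicates 1 and 2, though, *Etv5* was near or within the 5C range. *Piwil2* differed by -0.66 in Dazl-high cells and by 2.78 in the others, a gap of -3.43 ± 0.59 (SE, adjusted p = 2.44e-04). *Upp1* differed by -3.75 and -3.04, with no gap called (-0.71 ± 0.38, SE, adjusted p = 0.226).

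By cell, the shares with a UMI of *Dusp6*, *Spry4*, *Etv5* and *Lhx1* in DMSO replicates 3 to 5 lay below those of all 8 5C samples, a description with no test. A *Dusp6* UMI was found in 80.2% to 100% of the Dazl-high cells of the 5C samples and in 87.5%, 92.3%, 31.4%, 19.6% and 20.0% of those of DMSO replicates 1 to 5. Thinned to 30000 UMIs per cell, the shares were 76.4% to 96.1% and 88.6%, 82.8%, 24.4%, 11.7% and 16%. For *Spry4* the thinned shares were 43.9% to 66.6% in 5C and 0, 18.9%, 2.50%, 0 and 0 in DMSO replicates 1 to 5, and for *Lhx1* 45.0% to 80.6% and 14.3%, 33.1%, 7.16%, 8.37% and 3.93%. For *Etv5* they were 84.8% to 97.8% and 99.2%, 96.9%, 39.5%, 6.94% and 4.70%. For *Spry4* and *Lhx1* all 5 DMSO samples were below all 8 5C samples, and for *Dusp6* and *Etv5* only replicates 3 to 5 were. A share of 0 of 8 cells, as for *Spry4* in DMSO replicate 1, allows up to 37.5% of cells with a UMI by the limit of 3 cells (36.9% by the exact interval), and that sample limits the precision of each per-cell value.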

How the data were processed

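Raw UMI counts per gene and cell were deposited by the authors without normalization. Per the labels and the study's methods, reads were aligned to mm10 with STAR 2.7.2b and assigned with featureCounts 2.0.0, cells with fewer than 2000 genes or more than 5% mitochondrial UMIs were removed, and so were genes seen in fewer than 3 cells. Samples were grouped by their labels, and cells by the sample and day in their names. Counts of Dazl-high cells were summed per sample with at least 5 cells. The sums were tested with edgeR 4.0.16 (TMM, filterByExpr, quasi-likelihood F-test, Benjamini-Hochberg adjustment) in R 4.3.3, with only the samples compared in the fit and no covariate, and the standard error was taken from the fold change and F. The interaction was tested with limma 3.58.1 (voom, sample as block). Calls used an adjusted p below 0.05. The fits were tested on simulated data with known changes.

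The named genes are the markers, up to 6 called members per list and direction, and the 10 called genes per direction with the largest difference, no overlap and at least 20 CPM, with the antigen presentation genes added after their values were seen. Members and lists were chosen with earlier results of these data known. Doublets were not called, since cells were picked singly. Alternatives were DESeq2 1.42.0, other scalings, filters, *Dazl* thresholds and sample sets. Promoters are RefSeq's for GRCm38.p6 and gene positions GENCODE's for mm10. Methylomes were not analysed here, and 1 named gene is not reported here. Other values were computed in Python 3.11.15 with scipy 1.17.1.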

Additional observations from a re-analysis of the deposited data

Results flagged for a closer look

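Of 228 groups of samples tested for a sample far from the others, 20 held one, and chance flags about 1 in 20 groups. In the DMSO group the sample that stood apart was replicate 2 for *Lhx1* (95.7 CPM), *Spry4* (10.1), *Id4* (68.1) and *Psmb9* (34.8), and replicate 1 for *T* (15.2), *Il17rd* (119.6), *Klf2* (23.9) and *Hs3st3b1* (8.70). In the 5C group it was replicate 1 for *Tex101* (205.0), *Klf2* (87.9), *Fbxo15* (60.6), *Pfkp* (25.7), *Mt1* (457), *Mt2* (309) and *B2m* (71.6). It was 5C replicate 2 for *Henmt1* (49.9), replicate 4 for *Btg2* (110.7), replicate 5 for *Nrros* (47.2), replicate 6 for *Clec10a* (4.35) and replicate 8 for *Gal* (77.6).

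The 5C effect differed between Dazl-high cells and the other cells in 1920 genes, and in 40 of 114 named genes, by limma's test of the difference (adjusted p below 0.05). On the DMSO side the other cells came from replicates 1 and 2 alone and the Dazl-high cells from all replicates. A gap thus also holds differences between DMSO samples, not only between cell classes. Values are the log2 effect in Dazl-high cells minus that in the others, so their sign is not the direction of the 5C effect. Growth factor and SSC genes gave 2.53 for *Dusp6*, 4.68 for *Spry4*, 2.12 for *Spry1*, 3.66 for *Etv5*, 3.74 for *Phlda1*, 3.93 for *Ccnd1*, 7.59 for *Bhlhe40*, 1.25 for *Pou3f1*, -1.33 for *Sdc4* and -1.32 for *Lin28a*. *Bhlhe40* was at 0 in all DMSO sums of Dazl-high cells, so its value depends on the offset added to 0 counts. Germ cell and piRNA genes gave -1.90 for *Tdrd5*, -1.31 for *Mael*, -2.58 for *Mov10l1*, -2.09 for *Ddx4*, -2.14 for *Fkbp6*, -3.43 for *Piwil2*, -1.09 for *Uchl1*, -3.10 for *Tex101*, -1.54 for *Sohlh2* and 3.66 for *Meioc*.

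Among the remaining genes the difference was -7.86 for *Cartpt*, -7.10 for *Nme8*, -2.65 for *Rsph1*, -5.35 for *Zbp1*, -5.23 for *Fas*, -1.33 for *Dhcr7*, -1.06 for *Mvd* and -0.95 for *Psmb10*. It was 1.74 for *Sox2*, 1.49 for *Ldha*, 0.83 for *Slc2a1*, 1.17 for *Mcm5*, 1.56 for *Ccne1*, 0.82 for *Uhrf1*, 2.59 for *Hspb1*, 2.37 for *Mt1*, 2.12 for *Mt2*, 5.56 for *Crmp1*, 4.26 for *Sall2* and 5.15 for *Nrros*. *Ldha*, *Slc2a1*, *Mt1* and *Mt2* were lower in 5C in both classes of cells in this fit. *Hspb1* was at 0.44 in Dazl-high cells and -2.15 in the others, and the former sign is opposite to its edgeR call. The value of *Cartpt* rests on few counts in the 5C samples and in the other DMSO cells.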

How the results depend on the processing

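The 2908 genes called between 5C and DMSO became 46 on the closest days, which left 5 samples. They became 258 in cells with 0 UMIs of *Pou5f1*, *Nanog* and *Sox2*, which left 5C replicates 3, 4, 6 and 7 and DMSO replicates 3 to 5. There were 567 (293 higher, 274 lower) where the adjusted p had to be below 0.01 and the fold change to reach 1 as a natural logarithm in either direction. Replicate numbers did not pair the samples (correlations -0.0900 to 0.0659 over 5 numbers, and 2 of 5 correlated best with their own number). With the replicate block there were 1284 calls (674 higher, 610 lower), and 1766 in the same samples without it. Leaving out 1 sample at a time gave 2377 to 3227 calls, 948 to 2009 interaction calls where all samples gave 1920 (1079 without DMSO replicate 1 and 948 without replicate 2) and a difference in the share of Dazl-high cells of 0.284 to 23 points. The interaction gave 900 calls with edgeR without the block, and the day contrast 1340 with *Dazl* at 800 CPM, where the threshold of 400 CPM gave 2757. The cause was not tested. Of 114 named genes 93 kept their call in every single-sample omission, 21 lost it in at least 1 and 0 reversed. Such an omission leaves in any sample whose cell names differ from the omitted one only in their last number. Reversed values were 0.20 for *Dnmt3l* and 1.12 for *Hspb1* without DMSO replicates 1 and 2, and for *Hspb1* 0.49 in cells without those UMIs and 0.59 in samples with at most 3 other cells. On the closest days 16 of 113 named genes kept their call. DMSO replicates 1 and 2, with 8 and 13 cells, limit the precision of every value.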

Other observations

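Genes of class I antigen presentation, a group picked after its values were seen, were lower in the 5C Dazl-high cells. Of 12 tested, 9 were called lower and 0 higher by edgeR (11.4% of all genes tested were called lower), with a median log2 fold change of -1.46 against 0.03 over all genes, and 7 were lower without overlap between groups (3.8% of all genes tested). Without DMSO replicates 1 and 2, 12 of 12 were lower, with a median of -1.73. *H2-D1*, a class I heavy chain, ranged from 50.1 to 145 CPM (median 91.9) in 5C and was at 541, 287, 541, 681 and 747 CPM in DMSO replicates 1 to 5. The groups did not overlap (-2.58 ± 0.23, adjusted p = 7.80e-07), and the gene also passed on the closest days (-2.02, adjusted p = 0.0131), where 1 of 11 members was called lower and the median was -0.88. *H2-K1*, a second heavy chain whose reads may be shared with its relatives, as may those of *H2-D1*, was at 67.9 to 144 CPM in 5C and 215, 200, 212, 266 and 290.0 CPM in DMSO replicates 1 to 5 (-1.16 ± 0.17, adjusted p = 8.06e-05).

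*B2m*, the light chain, was at 71.6 to 165 CPM in 5C and 511, 223, 314, 346 and 395 CPM in DMSO replicates 1 to 5 (-1.48 ± 0.18, adjusted p = 1.25e-05). The inducible proteasome subunits *Psmb8*, *Psmb9* and *Psmb10* differed by -2.73, -2.67 and -1.15 (adjusted p = 6.44e-05, 2.41e-06 and 2.53e-04), each without overlap between groups. By day in the original condition, 4 of the 12 were higher on the early days and 1 lower.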
